A study of Mus musculus with 19 samples.

Results

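The 53 genes described here are the integrins, selectins and numbered cadherins of the mouse, the surface receptors with which blood cells hold on to matrix, vessel wall and each other. They were taken by a pattern on the gene symbol from the 23458 genes of the count table, and comprise 18 integrin alpha chains, 8 integrin beta chains, 3 selectins, the selectin ligand Selplg and 23 cadherins. A filter on low counts, applied once over all libraries, left 42 members for testing: all 18 alpha chains, 7 of 8 beta chains, the 3 selectins, Selplg and 13 of 23 cadherins. The other 11 were Itgb8, with 46 counts over all libraries, and 10 cadherins with at most 15 counts each, among them Cdh7 with no count in any library.

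The RNA came from 17 libraries in 7 groups, and the study compared leukemias that carry an internal tandem duplication of the FLT3 receptor (FLT3-ITD) with and without Dnmt3a, a DNA methyltransferase. In the retroviral model, donor cells of Mx1-cre mice were transduced with an MSCV virus and transplanted into lethally irradiated recipients, so recipient cells can remain. WT-GFP (n = 2) and KO-GFP (n = 2) are CD4+CD8+ thymocytes with intact Dnmt3a (Dnmt3a+/+) or floxed alleles (Dnmt3af/f) that received MSCV_GFP. WT-ITD (n = 3) and KO-ITD (n = 4) are leukemias with the same alleles that received MSCV_FLT3-ITD-GFP. All 4 of these groups carry Mx1-cre, the controls included, and all are on C57BL/6. The KO-ITD donors were enriched for Sca-1, the KO-GFP donors for ckit, and the WT-ITD donors differed from replicate to replicate. The leukemias were taken from thymus (WT-ITD 1 and 3, KO-ITD 3 and 4) or marrow (WT-ITD 2, KO-ITD 1 and 2). In the knock-in model, the pre-leukemic group (n = 3) is ER-cre-;Dnmt3af/f;Flt3+/ITD bulk marrow. The f/+ leukemias (n = 2) are ER-cre+;Dnmt3af/+;Flt3+/ITD, and the single f/f leukemia (n = 1) is ER-cre+;Dnmt3af/f;Flt3+/ITD. All 3 knock-in groups carry the Flt3 knock-in, and their marrow was not sorted on a surface marker. The replicates are labelled as biological, but nothing ties them to separate animals. The p-values therefore measure the spread between these samples.

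Depth ran from 4933886 to 25331906 counts per library. Levels are given as CPM, counts per 1000000 counts of the library's TMM-scaled total. Dnmt3a itself was at 180–257 CPM in WT-GFP and WT-ITD, at 144 and 207 CPM in KO-GFP, at 53.0–127 CPM in KO-ITD, at 130–154 CPM in pre-leukemic marrow, at 47.4 and 55.0 CPM in the f/+ leukemias and at 36.5 CPM in the f/f leukemia. A gene-level count includes exons that a floxed allele keeps, so it checks the deletion only in part. A list of 12 genes of CD4+CD8+ thymocytes summed to 15220–17380 CPM in the GFP groups, 9426–12230 CPM in WT-ITD, 4216–9501 CPM in KO-ITD and 26.8–110 CPM in the knock-in groups. KO-ITD replicate 4 stood apart, with fibroblast genes summing to 2834 CPM and monocyte and macrophage genes to 4239 CPM, against at most 679 and 291 CPM in the other KO-ITD libraries.

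Integrins are pairs of 1 alpha and 1 beta chain, and the beta chain largely decides where a receptor belongs. Itgb2 is found on leukocytes and pairs with Itgal (LFA-1), Itgam (Mac-1), Itgax and Itgad, all of which carry an inserted ligand-binding domain. Itgb1 is found on nearly all cells and has many partners, Itgb7 pairs with Itga4 and Itgae and guides lymphocytes to the gut, and Itgb3 pairs with Itga2b on platelets and with Itgav on other cells. Selectins bind sugars on proteins such as Selplg and let cells roll along vessel walls. Cadherins bind copies of themselves on neighbouring cells and hold epithelia and other solid tissues together. Thymocytes are known for LFA-1 and Itga4, granulocytes and monocytes for Mac-1, and megakaryocytes for Itga2b, Itgb3 and Selp.

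**Figure D1:**
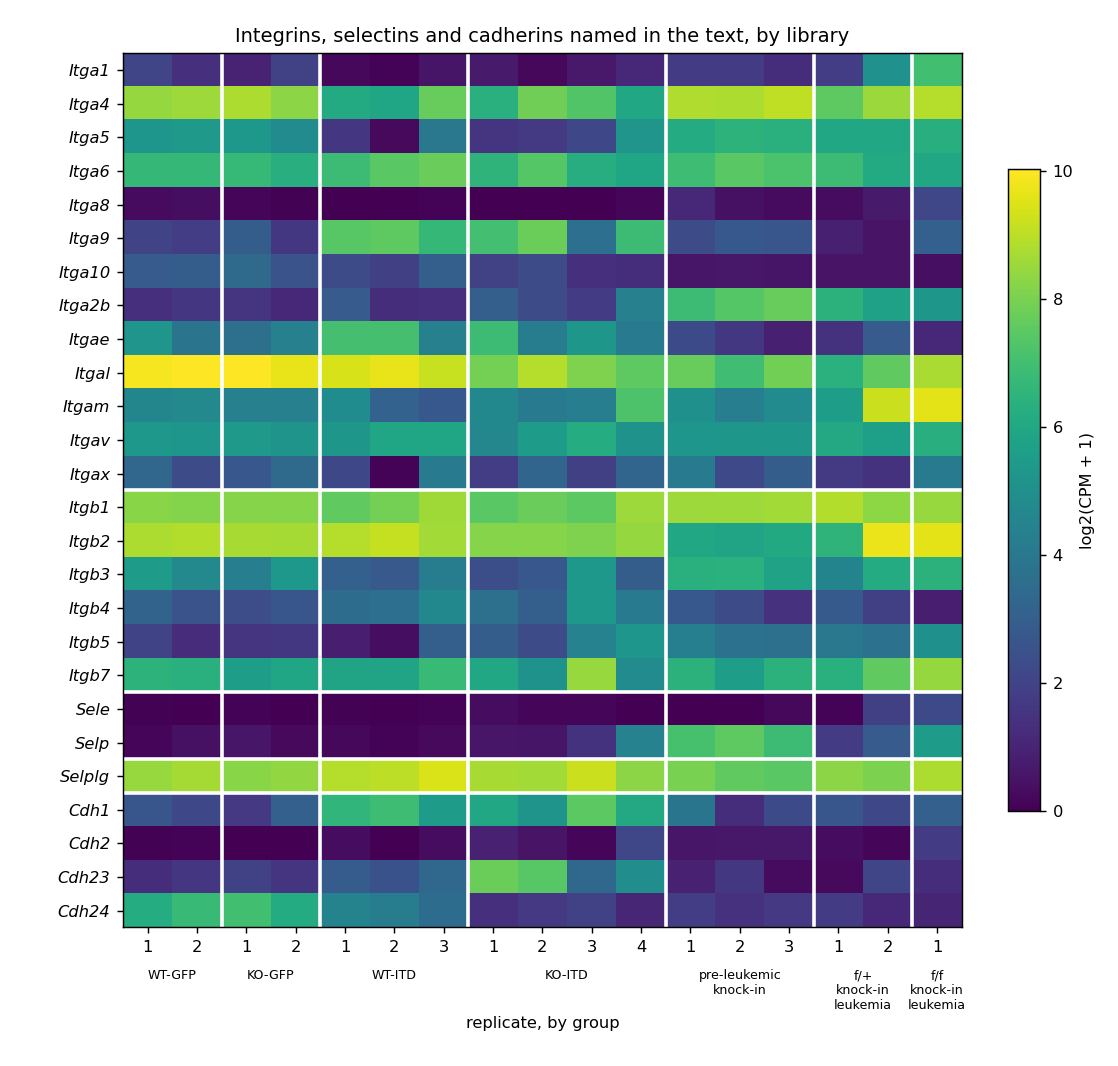
Members (26 drawn) that passed a test or averaged at least 10 CPM in a group, as log2(CPM + 1) in each of the 17 libraries, with replicates in columns by group and white lines between groups and between families. Itga9 and Cdh1 are bright in the retroviral leukemias and Cdh24 in the GFP thymocytes, while Itga2b and Selp are bright in pre-leukemic marrow.

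Promoter sequence is shown for 4 members that carry the results below: 3 that separated the retroviral leukemias from thymocytes or from each other, and Itgam, which separated a knock-in leukemia from pre-leukemic marrow. CpG pairs, the sites that Dnmt3a methylates, are in capitals. Each line gives the 250 bases before a start of the gene in RefSeq (GRCm38.p6), 5′ to 3′ along the gene's strand. The windows were not matched to the starts of the transcripts counted, which lie on mm9. A window, that of Itga9 in particular, may thus lie at an internal start and not at the promoter of the transcripts counted. Cdh24 is at chr14:54641365-54641614 on the minus strand, Itga9 at chr9:118711442-118711691 on the plus strand, Cdh23 at chr10:60696491-60696740 on the minus strand and Itgam at chr7:128062390-128062639 on the plus strand.
Cdh24: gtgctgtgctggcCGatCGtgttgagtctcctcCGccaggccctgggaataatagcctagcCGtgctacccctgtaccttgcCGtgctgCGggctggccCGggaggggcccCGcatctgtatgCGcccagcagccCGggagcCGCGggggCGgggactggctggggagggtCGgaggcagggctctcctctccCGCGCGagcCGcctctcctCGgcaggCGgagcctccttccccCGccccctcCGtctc
Itga9: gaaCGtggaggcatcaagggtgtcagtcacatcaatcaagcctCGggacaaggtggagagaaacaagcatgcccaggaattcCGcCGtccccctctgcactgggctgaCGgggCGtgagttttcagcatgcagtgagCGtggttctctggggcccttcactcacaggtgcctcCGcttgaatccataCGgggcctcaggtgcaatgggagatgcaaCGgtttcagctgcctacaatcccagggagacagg
Cdh23: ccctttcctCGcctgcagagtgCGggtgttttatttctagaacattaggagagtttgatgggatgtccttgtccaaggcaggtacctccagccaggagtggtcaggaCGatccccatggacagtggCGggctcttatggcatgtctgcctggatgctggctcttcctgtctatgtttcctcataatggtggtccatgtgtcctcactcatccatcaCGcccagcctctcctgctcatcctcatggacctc
Itgam: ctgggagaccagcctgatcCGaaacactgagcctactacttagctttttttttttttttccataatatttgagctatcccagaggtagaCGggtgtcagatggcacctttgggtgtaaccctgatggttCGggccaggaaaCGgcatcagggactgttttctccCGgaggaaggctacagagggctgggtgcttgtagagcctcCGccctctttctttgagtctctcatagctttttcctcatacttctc

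The Cdh24 window holds 22 CpG, which is at percentile 85.9 of all 32851 windows of the same length. The Itga9 window holds 10, the Itgam window 6 and the Cdh23 window 5, at percentiles 63.3, 51.7 and 47.0. The median was 8 CpG over the 37 windows of 33 matched members and 6 over all windows. GATA, PU.1, E-box and RUNX motifs were searched on both strands. The E-box CAGGTG, the class of site that E proteins read in thymocytes, was in 24.3% of member windows and 17.2% of all windows, with matches in the Itga9 window. The RUNX motif TGTGGT was in 13.5% and 14%, the GATA motif AGATAA in 5.4% and 10%, and the PU.1 motif GAGGAAGT in 8.1% and 2.4%. A match is a run of letters and not a bound site, and methylation was not measured in the files used here.

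The first question was which adhesion genes differ between a FLT3-ITD leukemia and normal thymocytes when Dnmt3a is intact. In WT-ITD against WT-GFP, Itga9 and Cdh1 rose and Cdh24 fell, so 3 of 42 members passed the test, where 2.24% of all 15508 genes tested did, 1.35% higher and 0.89% lower (edgeR's quasi-likelihood test, Benjamini-Hochberg adjusted p below 0.05, as in every comparison below). The median log2 difference was 0.18 over the members and 0.03 over all genes. Members that passed the filter through 1 high group had to differ, so such medians only describe. Where levels are said not to overlap, here or below, the share of all genes without overlap was not counted. Such statements also only describe. The chains for which thymocytes are known, Itgal, Itgb2, Itgb1 and Itga4, did not pass. In bulk RNA, fewer cells of a type and less RNA per cell cannot be told apart, here or in any result below.

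Itga9 encodes the alpha chain that pairs with Itgb1 and binds tenascin, osteopontin and VCAM-1, and the gene lies at mm9 chromosome 9, 118515827–118810121. The WT-GFP libraries held 3.12 and 2.55 CPM, and WT-ITD replicates 1 to 3 held 168, 182 and 101.3 CPM. The groups did not overlap, and every leukemia was far above both thymocyte libraries. The log2 difference was 5.73 (SE 1.01, 53.0-fold, adjusted p = 0.0122). Per kilobase of exon, Itga9 rose from a mean of 0.400 to 21.3 CPM per kb.

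Cdh1, which encodes E-cadherin, the adhesion protein of epithelia, had 5.48 and 3.49 CPM in the WT-GFP libraries, while the WT-ITD libraries held 95, 118 and 44.0 CPM. The groups did not overlap, and the log2 difference was 4.25 (SE 0.99, adjusted p = 0.044). The neighbouring Cdh3, at mm9 chromosome 8 beside Cdh1, averaged at most 4.67 CPM in any group. A list of 8 genes of thymic epithelium summed to 13.8–16.4 CPM in WT-GFP and 121–187 CPM in WT-ITD. Within WT-ITD the sum was highest in replicate 3, where Cdh1 was lowest. Epcam made up most of that sum, at 116, 117 and 156 CPM. The epithelial genes Foxn1, Krt5 and Krt8 were at 0 in WT-ITD replicates 1 and 2, where Cdh1 was highest. In replicate 3 they were at 0.368, 7.67 and 14.4 CPM, and the part of epithelial RNA in that library's Cdh1 level was not tested.

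Cdh24, a type II cadherin that lies at mm9 chromosome 14, 55250829–55260201, went the other way. The WT-GFP libraries held 72.1 and 106 CPM and the WT-ITD libraries 21.4, 17.6 and 10.5 CPM, with no overlap. Cdh24 differed by −2.44 in log2 (SE 0.43, adjusted p = 0.0124).

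The spread of each of these 3 calls rests in part on having both WT-GFP libraries. Without WT-GFP replicate 1 the differences of Itga9, Cdh24 and Cdh1 were 5.88, −2.69 and 4.62 (adjusted p = 0.174, 0.0699 and 0.28), and without replicate 2 they were 5.59, −2.13 and 3.96 (adjusted p = 0.208, 0.194 and 0.439). Cdh1 also missed the threshold without WT-ITD replicate 1 (4.08, adjusted p = 0.119) or replicate 2 (3.95, adjusted p = 0.0963). Among thymus libraries alone the adjusted p-values of Itga9, Cdh24 and Cdh1 were 0.071, 0.0715 and 0.062.

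**Figure D2:**
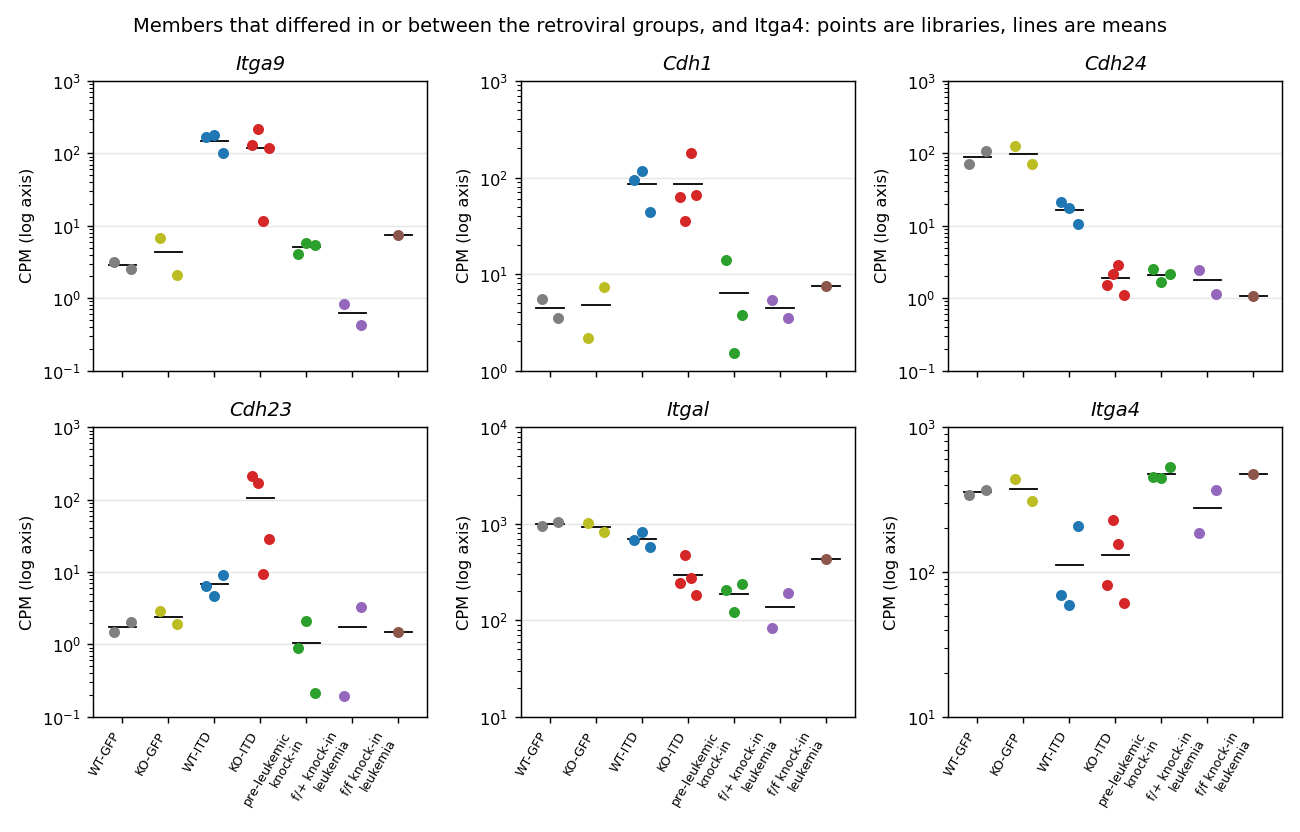
Levels of Itga9, Cdh1, Cdh24, Cdh23, Itgal and Itga4, in CPM on a log axis, with a point for each library and a line for each group mean. Itga9 sits at 101.3–182 CPM in WT-ITD and at 11.6–217 CPM in KO-ITD, and Cdh24 steps down from the GFP groups through WT-ITD to KO-ITD.

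The same contrast with Dnmt3a deleted, KO-ITD against KO-GFP, gave 6 of 42 members, where 19.6% of all genes passed (9.8% higher, 9.85% lower). The share of members was 14.3%, near the background. Itga9, Cdh1, Cdh2 and Cdh23 rose, and Cdh24 and Itgal fell. The median log2 difference was 1.61 over the members and 0.19 over all genes. The enrichment of the donor cells, Sca-1 against ckit, cannot be told apart from the leukemia here.

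Cdh24 was at 125 and 70.8 CPM in KO-GFP and at 1.53, 2.14, 2.89 and 1.09 CPM in KO-ITD. No KO-ITD library came near the thymocytes, and the log2 difference was −5.67 (SE 0.44, 50.7-fold lower, adjusted p = 4.36e-05). It passed under all 14 alternatives run.

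Itga9 was at 6.71 and 2.08 CPM in KO-GFP and at 131, 217, 11.6 and 117 CPM in KO-ITD. The groups did not overlap, although replicate 3, a thymus library, lay much lower than the other KO-ITD libraries. The log2 difference was 4.77 (SE 0.95, adjusted p = 0.00755). Without KO-GFP replicate 1 or 2 it was 5.84 or 4.15 (adjusted p = 0.07 and 0.0646).

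Cdh1 was at 2.17 and 7.40 CPM in KO-GFP and at 63.4, 35.8, 181 and 65.8 CPM in KO-ITD, again without overlap. Its log2 difference was 4.17 (SE 0.97, adjusted p = 0.0132), and 3.55 without KO-GFP replicate 1 (adjusted p = 0.189). Replicate 3 was the highest for Cdh1 and also for Epcam, at 291 CPM, against 72.7–84.1 CPM in the other KO-ITD libraries. Foxn1 and Krt5 were at 0 in KO-ITD replicates 1 and 2. The part of epithelial RNA in the Cdh1 result of replicates 3 and 4 was not tested.

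Cdh23, a long cadherin known from the tip links of hair cells in the inner ear, was at 2.88 and 1.93 CPM in KO-GFP and at 215, 168, 9.26 and 28.9 CPM in KO-ITD. The groups did not overlap, but the KO-ITD libraries fell into a high pair from marrow and a lower pair from thymus. Cdh23 differed by 5.45 in log2 (SE 1.45, adjusted p = 0.0218). Within the thymus libraries it was 3.04 (adjusted p = 0.0224). It was 5.77 without KO-GFP replicate 1 and 5.19 without replicate 2 (adjusted p = 0.2 and 0.14). Tissue, and the Cuffdiff version in the processing notes, both separate KO-ITD replicates 1 and 2 from 3 and 4, so they cannot be told apart.

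Cdh2, which encodes N-cadherin, was at 0 counts in both KO-GFP libraries and at 7, 8, 1 and 28 counts in KO-ITD, where replicate 4 held most of them. Against a floor of 3 counts over the KO-GFP group, Cdh2 was at least 12.3-fold higher (adjusted p = 0.0247). Its level reached only 3.40 CPM. It missed the threshold without KO-GFP replicate 1 or 2 (adjusted p = 0.197 and 0.127). Fibroblast genes, whose cells also make N-cadherin, summed to 138–2834 CPM in KO-ITD and to 6.69–7.54 CPM in KO-GFP, with the highest sum in replicate 4, and their part in the Cdh2 result was not tested.

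Itgal, the alpha chain of LFA-1, had 1022 and 821 CPM in the KO-GFP libraries. Its KO-ITD levels of 243, 476, 271 and 183 CPM all lay below them. The log2 difference was −1.65 (SE 0.38, adjusted p = 0.012). Without KO-GFP replicate 1 the difference was −1.49 (adjusted p = 0.158). Its beta chain Itgb2 was at 412 and 411 CPM in KO-GFP and at 294, 292, 273 and 343 CPM in KO-ITD. Those groups did not overlap either, but the log2 difference of −0.45 (SE 0.52) did not pass (adjusted p = 0.53).

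The other partners did not pass in either contrast, and a p above the threshold does not show that levels were equal. Itga4, the chain shared by VLA-4 and the gut-homing receptor, had 342 and 370 CPM in the WT-GFP libraries against 69.2, 59.3 and 208 CPM in WT-ITD, a log2 difference of −1.67 (SE 0.57, adjusted p = 0.149). Its levels were 437 and 310 CPM with KO-GFP against 81.6, 228, 156 and 61.4 CPM with KO-ITD, a log2 difference of −1.50 (SE 0.53, adjusted p = 0.0592). In both contrasts every leukemia lay below every thymocyte library. Itga4 overlaps Cerkl on the opposite strand, and the strand setting of the counting was not stated, so reads of the pair cannot be told apart. The same limit applies to Itgb4 (Galk1), Itga8 (E030013I19Rik) and Selp (Gm16548) below.

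Itgb1 differed by −0.10 with Dnmt3a intact and −0.33 with it deleted (adjusted p = 0.908 and 0.457), and Itgb7 by −0.20 and 1.15 (adjusted p = 0.934 and 0.335). Itgb7 was at 355 CPM in KO-ITD replicate 3 alone, against 27.7–62.9 CPM in the other KO-ITD libraries. Itgam differed by −0.78 and 1.40 (adjusted p = 0.735 and 0.34), and it was at 147 CPM in KO-ITD replicate 4 and at most 28.7 CPM in the other 6 leukemias. Itgal with Dnmt3a intact differed by −0.54 (SE 0.41, adjusted p = 0.529), from 955 and 1038 CPM to 674, 815 and 572 CPM. Itgb2 there differed by 0.08 (SE 0.55, adjusted p = 0.966).

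The platelet chains gave log2 differences of 0.80 and 2.42 for Itga2b (adjusted p = 0.644 and 0.0568) and −1.75 and −1.02 for Itgb3 (adjusted p = 0.308 and 0.358). Itgav differed by 0.43 with Dnmt3a intact (adjusted p = 0.584). The 39 members that did not pass in WT-ITD against WT-GFP ranged from −3.36 to 5.46, and the 36 in KO-ITD against KO-GFP from −1.63 to 4.85. Selplg stayed between 302 and 704 CPM in all 11 retroviral libraries.

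The levels of partner chains can be set against each other per kilobase of exon. Of the 4 alpha chains of Itgb2, Itgal made up 95.8% and 96.6% in WT-GFP, 95.6% and 96.9% in KO-GFP and 94.5–98.9% in WT-ITD. In KO-ITD it made up 82.9%, 92.3%, 91.0% and 50.4%, and the low value of replicate 4 was matched by 45.3% Itgam. Among 12 alpha chains that can pair with Itgb1, Itga4 made up 46.0–50.6% in the 4 GFP libraries. It made up 10.7%, 7.2% and 21.3% in WT-ITD and 15.7%, 22.9%, 32.8% and 11.2% in KO-ITD. Itga9 was at 0.5–1.1% of them in GFP thymocytes, at 36.0%, 30.8% and 14.4% in WT-ITD and at 34.8%, 30.1%, 3.4% and 29.8% in KO-ITD. In 6 of the 7 retroviral leukemias the Itga9 share was at least 14.4%, and KO-ITD replicate 3 was the exception.

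**Figure D3:**
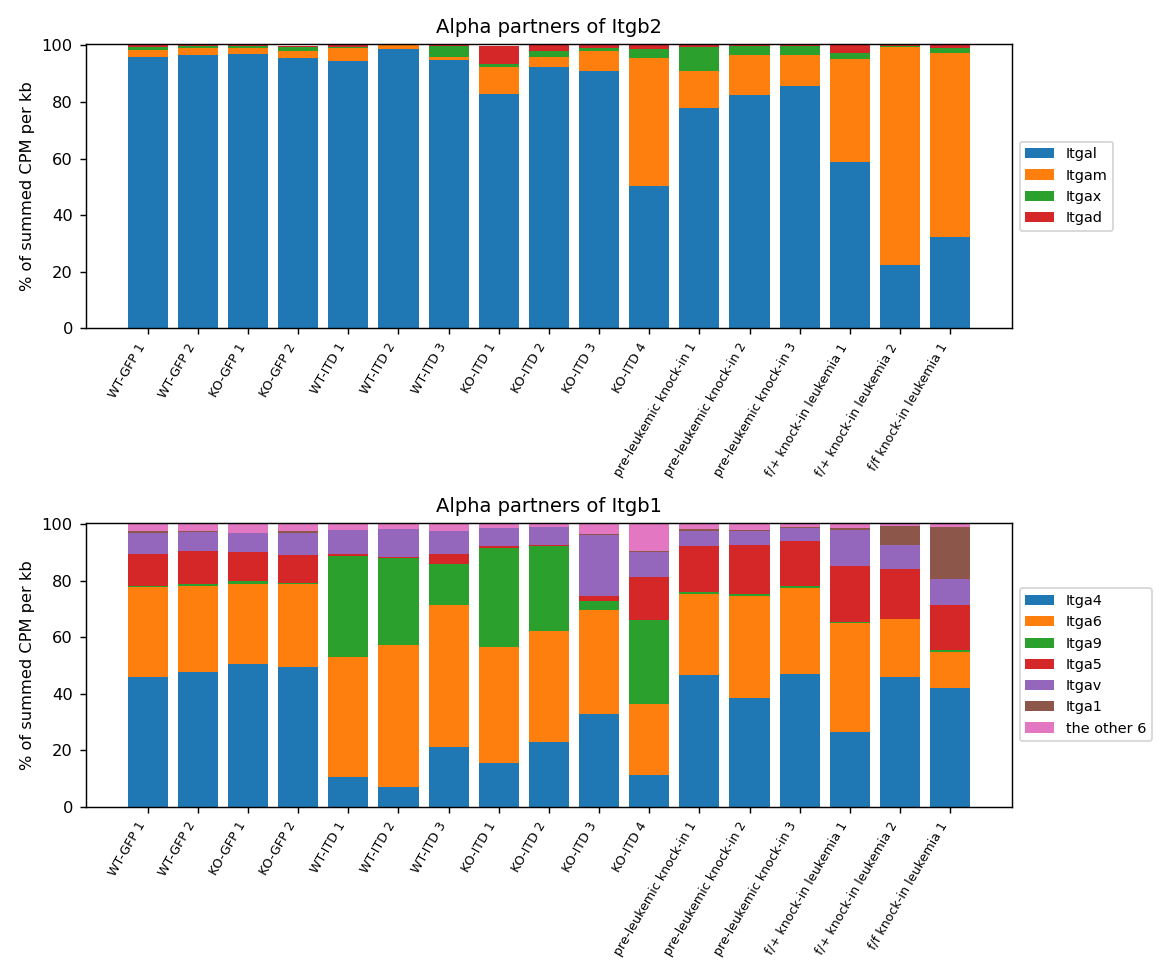
Stacked bars of alpha chain shares in percent of their summed CPM per kilobase, 1 bar per library: the 4 partners of Itgb2 above, and 12 partners of Itgb1 below with 6 of them summed. Itgal makes up over 94% in the GFP and WT-ITD bars and 22.4–58.7% in the knock-in leukemias, and the Itga9 share is wide in all retroviral leukemias except KO-ITD replicate 3.

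The next question was what differs with Dnmt3a loss, within the leukemias and within thymocytes. All KO-ITD donors were enriched for Sca-1, but the WT-ITD donors were not all. The later Cuffdiff version was named for some KO-ITD libraries and for no WT-ITD library. In the fit over all libraries, neither can be fully told apart from Dnmt3a loss, here or below. For the WT-GFP donors the enrichment was not given, so it cannot be compared with that of KO-GFP. In KO-ITD against WT-ITD, Cdh24, which fell, was the 1 member of 42 that passed, where 0.49% of all genes did (0.206% higher, 0.284% lower). The levels given above, 21.4, 17.6 and 10.5 CPM with WT-ITD and 1.09–2.89 CPM in KO-ITD, do not overlap. Cdh24 differed by −3.10 in log2 (SE 0.39, 8.56-fold lower, adjusted p = 0.00534). It passed when any 1 library was left out. It missed the threshold among thymus libraries alone (−2.96, adjusted p = 0.0716) and in a fit of these 2 groups alone (−3.08, adjusted p = 0.186).

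Members with large differences that did not pass were Cdh23 at 3.95 (SE 1.10, adjusted p = 0.116) and Itgal at −1.23 (SE 0.34, adjusted p = 0.116). Cdh23 was at 6.50, 4.72 and 9.21 CPM in WT-ITD, below all 4 KO-ITD libraries, although replicate 3 of KO-ITD lay just above at 9.26 CPM. Itgal was also lower in every KO-ITD library than in any WT-ITD library. Itga9 and Cdh1, the pair that rose in both leukemias, gave −0.34 (SE 0.64, adjusted p = 0.797) and 0.01 (adjusted p = 0.998). Itgb2 gave −0.67 (adjusted p = 0.42). The 41 members that did not pass ranged from −4.17 for Cdh22 to 5.38 for Selp.

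In KO-GFP against WT-GFP, 0 of 42 members and 0% of all genes passed. At an unadjusted p below 0.05, edgeR listed 74 of all 15508 genes and 0 members, fewer than chance alone would give. The test was thus strict here, and 0 passing does not show equal levels. DESeq2 called 12 genes and 0 members at an adjusted p below 0.05. The Cdh24 levels of WT-GFP (72.1 and 106 CPM) and KO-GFP (125 and 70.8 CPM) overlapped.

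The interaction, which asks whether the leukemia differs from thymocytes by another amount when Dnmt3a is deleted, gave 0 of 42 members and 0% of all genes. At an unadjusted p below 0.05 edgeR listed 838 genes and 3 members. DESeq2 called 80 genes and 1 member at an adjusted p below 0.05. For Cdh24 the interaction was −3.23 (SE 0.62, adjusted p = 0.299), for Itgal −1.12 (SE 0.57, adjusted p = 0.819) and for Cdh23 3.50 (adjusted p = 0.819). The calls of Cdh23 and Itgal in KO-ITD alone are thus not shown to be particular to Dnmt3a loss.

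**Figure D4:**
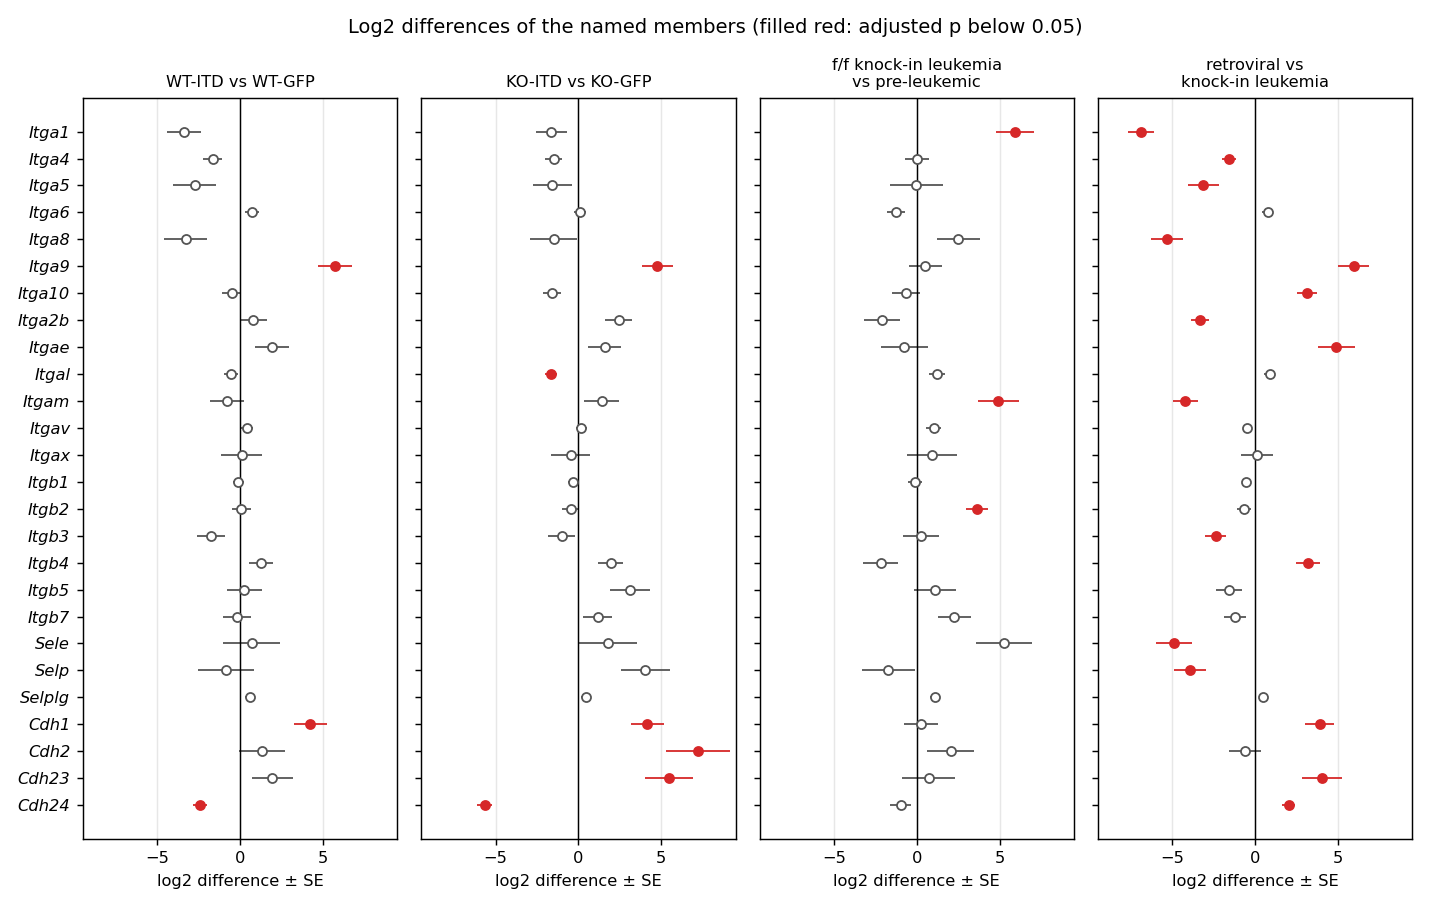
Log2 differences of 26 members in 4 comparisons, as points with standard errors from the fit over all libraries, filled red where the adjusted p was below 0.05. Cdh24 is lower and Itga9 and Cdh1 are higher in both retroviral contrasts, and 16 members pass in retroviral against knock-in leukemia; the point for Cdh2 in KO-ITD against KO-GFP is a fitted value against a group at 0 and no bound.

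In the knock-in model the question was how leukemias of ER-cre+ mice with 1 or 2 floxed Dnmt3a alleles differ from pre-leukemic marrow with the same Flt3 allele. In the f/+ leukemias against pre-leukemic marrow 1 of 42 members passed, where 5% of all genes did (3.43% higher, 1.57% lower). In the single f/f leukemia 3 members passed, where 3.01% of all genes did (2.11% higher, 0.903% lower). Both comparisons share the pre-leukemic libraries, and the f/f group has no spread of its own: its 1 library was assumed to vary like the other groups. The members that rose were Itgb2 in both, and Itgam and Itga1 in the f/f leukemia.

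Itgb2 was at 62.2, 56.9 and 67.4 CPM in pre-leukemic marrow, at 91.5 and 836 CPM in the f/+ leukemias and at 773 CPM in the f/f leukemia. The pre-leukemic libraries lay below all leukemias, but f/+ replicate 1 was near them and replicate 2 was near the f/f leukemia. The log2 difference was 2.90 (SE 0.56, adjusted p = 0.0195) in f/+ and 3.64 (SE 0.64, adjusted p = 0.0162) in f/f. Without f/+ replicate 2 the f/+ difference was 0.56 (adjusted p = 0.19). It was 2.90, 2.84 and 2.96 without pre-leukemic replicate 1, 2 or 3 (adjusted p = 0.079, 0.0877 and 0.0633). In a fit of the groups compared alone it was 2.92 (adjusted p = 0.0944).

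Itgam, the alpha chain of Mac-1 and the CD11b antigen of myeloid cells, was at 31.5, 18.7 and 27.5 CPM in pre-leukemic marrow, at 46.2 and 593 CPM in f/+ and at 789 CPM in f/f. Here too f/+ replicate 2 and the f/f leukemia were high and f/+ replicate 1 was not. Itgam gave a log2 difference of 4.93 in f/f (SE 1.22, adjusted p = 0.0476), while 3.62 in f/+ did not pass (SE 1.08, adjusted p = 0.0675).

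Itga1, a collagen receptor that pairs with Itgb1 and is known from activated T cells and stromal cells, was at 2.31, 2.45 and 1.49 CPM in pre-leukemic marrow, at 2.50 and 32.7 CPM in f/+ and at 126 CPM in f/f. The f/f library was the highest of all 17. Its log2 difference was 5.93 (SE 1.13, adjusted p = 0.0216). The neighbouring Itga2, which lies next to Itga1 on mm9 chromosome 13 and has the same partner, averaged at most 2.50 CPM in any group.

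The 3 calls in the f/f leukemia missed the threshold when any 1 pre-leukemic library was left out. Without pre-leukemic replicate 1, 2 or 3 the adjusted p was 0.0775, 0.0884 and 0.0746 for Itga1 (6.02, 6.07 and 5.72), 0.127, 0.151 and 0.133 for Itgam (5.09, 4.74 and 4.98) and 0.0657, 0.0735 and 0.0523 for Itgb2 (3.64, 3.58 and 3.70).

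Granulocyte and monocyte genes moved with Itgb2 and Itgam as sums, but not gene by gene. A list of 12 granulocyte genes summed to 3176–4779 CPM in pre-leukemic marrow, 3847 and 20050 CPM in f/+ replicates 1 and 2 and 15700 CPM in f/f. For 11 monocyte and macrophage genes the sums were 220–429, 658 and 1939, and 2444 CPM. The libraries with the highest sums were those with high Itgb2 and Itgam. In f/+ replicate 1, however, the granulocyte list was split. There S100a8, S100a9, Ltf, Camp, Ngp, Lcn2 and Mmp8 lay above pre-leukemic marrow, with Ltf at 330 against 15.7–56.0 CPM. Elane, Mpo, Prtn3, Ctsg and Csf3r lay below it, with Mpo at 967 against 2026–3192 CPM. The part of the cell mixture in these results was not tested.

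Itgal, the other main partner of Itgb2, was at 204, 123 and 238 CPM in pre-leukemic marrow, 83.2 and 192 CPM in f/+ and 433 CPM in f/f, with log2 differences of −0.46 (adjusted p = 0.538) and 1.20 (adjusted p = 0.19). Itgad gave 3.58 in f/f (adjusted p = 0.0801), at 9.22 CPM. Per kilobase, Itgal made up 77.7–85.5% of the 4 alpha chains of Itgb2 in pre-leukemic marrow, 58.7% and 22.4% in f/+ and 32.1% in f/f. Itgam made up 11–14%, then 36.4% and 77.2%, and 65.3%. Itgb2 itself was 13.3–14.5% of the 8 beta chains before leukemia, 17.5% and 64.0% in f/+ and 53.1% in f/f.

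No member known from megakaryocytes and platelets passed the test. Selp, which platelets and endothelium bring to their surface when activated, was at 137, 186 and 117 CPM in pre-leukemic marrow, 2.37 and 6.37 CPM in f/+ and 44.1 CPM in f/f. No leukemia reached the pre-leukemic range, and the log2 difference was −5.07 in f/+ (SE 1.45, adjusted p = 0.0614). Itga2b, the CD41 antigen, was at 117, 167 and 207 CPM, then 86.8 and 52.7 CPM, and 38.2 CPM, with −1.23 in f/+ (adjusted p = 0.345) and −2.10 in f/f (adjusted p = 0.29). Itgb3 was at 81.4, 83.2 and 53.5 CPM, then 22.1 and 70.6 CPM, and 86.1 CPM, so f/+ overlapped with pre-leukemic marrow and f/f lay above it. A list of 10 megakaryocyte genes summed to 176–602 CPM in pre-leukemic marrow, 57.7 and 24.5 CPM in f/+ and 114 CPM in f/f, and its part was not tested.

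Itga4 was at 452, 443 and 532 CPM in pre-leukemic marrow and at 186, 368 and 475 CPM in the f/+ replicates and the f/f leukemia, with −0.78 in f/+. Itgb7 was at 86.6, 47.5 and 84.8 CPM, then 81.1 and 191 CPM, and 349 CPM, with 0.90 in f/+ and 2.25 in f/f (adjusted p = 0.218). The 41 members that did not pass in f/+ ranged from −7.07 to 7.73, and the 39 in f/f from −7.07 to 5.27.

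**Figure D5:**
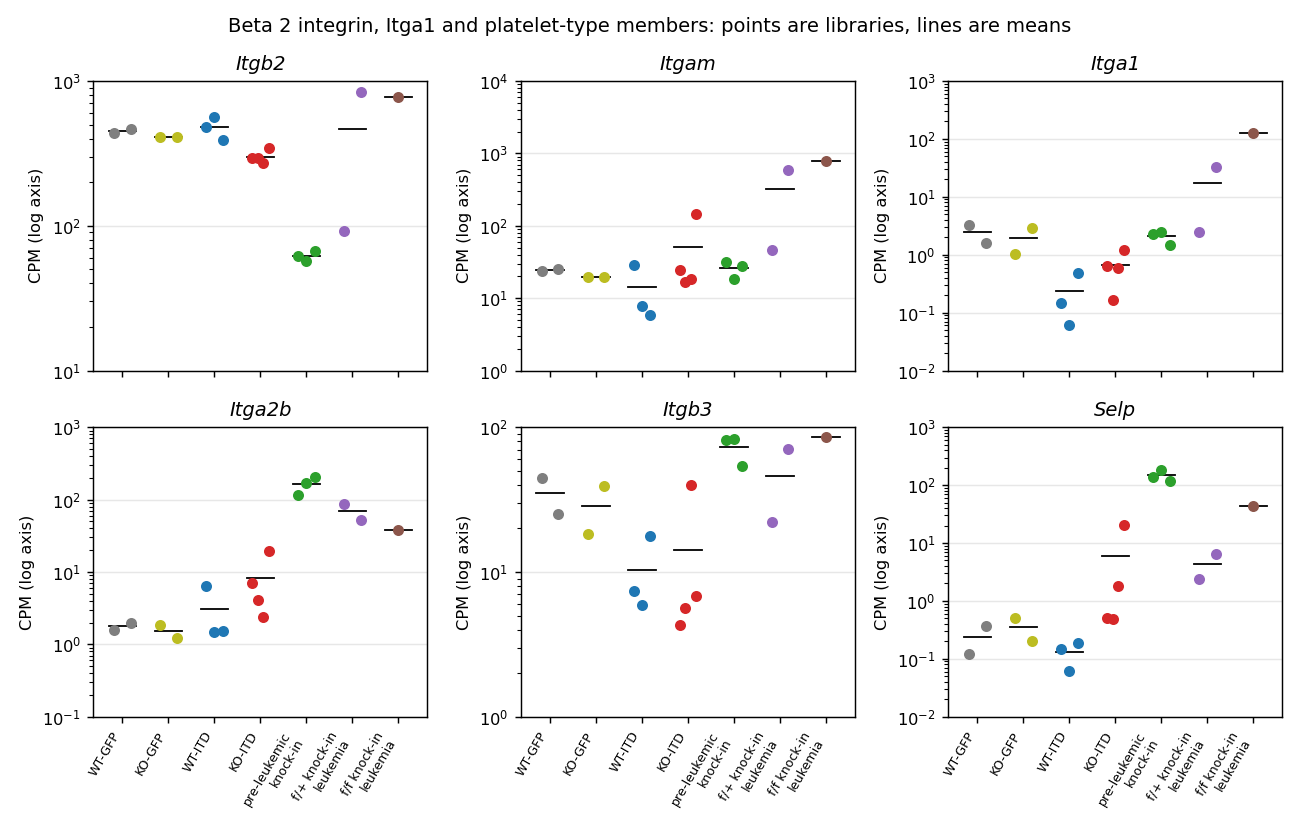
Levels of Itgb2, Itgam, Itga1, Itga2b, Itgb3 and Selp in CPM on a log axis, with a point for each library and a line for each group mean. For Itgb2, Itgam and Itga1 the upper f/+ library lies near or below the f/f leukemia and far above the other f/+ library, and Selp is at 117–186 CPM in pre-leukemic marrow.

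The leukemias of both models were then set against each other: 7 retroviral libraries, whose thymocyte genes are high, and 3 knock-in libraries, whose thymocyte genes summed to at most 110 CPM. The difference is that between the mean of the 2 retroviral and the mean of the 2 knock-in groups. The model, the sorting and the lineage change together and cannot be told apart here. Granulocyte genes summed to at most 1101 CPM in the retroviral leukemias and to at least 3847 CPM in the knock-in ones. Tissue and Cuffdiff version overlap in part, since 3 retroviral leukemias came from marrow and KO-ITD replicates 3 and 4 were processed with the version of the knock-in libraries. Of 42 members 16 passed, where 32.1% of all genes did. The share of members (38.1%) was near the background. In the retroviral leukemias 7 were higher (15% of all genes were) and 9 were lower (17.1% of all genes). The median log2 difference was −0.53 over the members and 0.08 over all genes. In a fit of the marrow libraries alone, added after the data were seen, 22 members passed, 7 higher and 15 lower, of 4651 among 14561 genes. All 16 members called over all libraries passed there in the same direction.

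Among alpha chains, Itga9 was 5.94 higher in log2 in the retroviral leukemias (SE 0.96, adjusted p = 0.000587), since it was at 0.834, 0.429 and 7.40 CPM in the knock-in leukemias and at 11.6–217 CPM in the retroviral ones, with a median of 131. The 3 retroviral marrow leukemias were at 182, 131 and 217 CPM, and the marrow fit gave 6.30 (adjusted p = 0.000145). Itgae, the CD103 chain that binds E-cadherin on epithelium, was at 1.73, 6.37 and 1.23 CPM against 17–133 CPM, and it was higher by 4.90 (SE 1.11, adjusted p = 0.0048). Itga10, a collagen receptor, was at 0.322–0.449 CPM against 1.46–7.24 CPM (3.15, SE 0.59, adjusted p = 0.00157). The levels of Itga9, Itgae and Itga10 did not overlap between the models.

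Lower in the retroviral leukemias were the alpha chains Itga1, Itga8, Itgam, Itga2b, Itga5 and Itga4. Itga1 was at 0.061–1.21 CPM against 2.50–126 CPM (−6.91, SE 0.79, adjusted p = 5.2e-05), and Itga2b at 1.47–19.5 CPM against 38.2–86.8 CPM (−3.34, SE 0.55, adjusted p = 0.000695). Neither overlapped. Itgam did overlap, because KO-ITD replicate 4 was at 147 CPM and f/+ replicate 1 at 46.2 CPM, and its log2 difference was −4.22 (SE 0.78, adjusted p = 0.00135).

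Itga5, the fibronectin receptor chain, was at 0.184–36.8 CPM against 62.3–78.9 CPM (−3.13, SE 0.95, adjusted p = 0.0227), and it missed the threshold without WT-ITD replicate 1 (−2.93, adjusted p = 0.055). Itga4 was at 59.3–228 CPM against 186–475 CPM, with overlap (−1.58, SE 0.43, adjusted p = 0.0128). Without f/+ replicate 2 it gave −1.29 (adjusted p = 0.0565). Itga8, a chain of smooth muscle and mesenchyme, had 2 counts in 7 retroviral libraries and 76 in the 3 knock-in leukemias, a ratio of 73.8 in the knock-in direction (95% counting interval 19.8–621, adjusted p = 0.00122). Of these 76 the f/f leukemia held 63 and the f/+ libraries 4 and 9. Against f/+ alone the ratio was 20.8 (95% counting interval 4.72–190). Its highest level was 3.38 CPM.

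Of the beta chains, Itgb4, which pairs with Itga6 in epithelia, was at 7.20–39.8 CPM in the retroviral and 0.804–6.16 CPM in the knock-in leukemias (3.17, SE 0.72, adjusted p = 0.00493). Itga6 was at 58.9–210 CPM and 61.9–117 CPM and overlapped. Itgb3 was lower in the retroviral leukemias by 2.38 (SE 0.64, adjusted p = 0.0119), at 4.33–40.1 CPM against 22.1–86.1 CPM with overlap, and −1.85 without f/+ replicate 2 (adjusted p = 0.0609). Itgb2 gave −0.66 (adjusted p = 0.252), Itgal 0.88 (adjusted p = 0.0687), Itgb1 −0.56 and Itgb7 −1.22, and none of these passed.

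Both endothelial selectins were lower in the retroviral leukemias. Selp was at 0.061–20.8 CPM against 2.37–44.1 CPM (−3.94, SE 0.95, adjusted p = 0.00688). KO-ITD replicate 4 supplied the 20.8 CPM, and its megakaryocyte list summed to 116 CPM against at most 8.35 CPM in the other retroviral leukemias. Sele, which endothelium makes under inflammation, was at 0–0.254 CPM against 0.064, 2.72 and 3.65 CPM (−4.89, SE 1.10, adjusted p = 0.00462). Over all libraries, Sele was above 0.254 CPM only in f/+ replicate 2 and the f/f leukemia. It passed the low-count filter through those libraries, where it was high, so its call had to come out lower and only describes. The lowest knock-in library lay within the retroviral range, and without f/+ replicate 2 the difference was −2.76 (adjusted p = 0.139). Selplg gave 0.46 and did not pass.

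The cadherins that passed were all higher in the retroviral leukemias. Cdh1 was higher by 3.89 (SE 0.87, adjusted p = 0.00435), Cdh23 by 4.05 (SE 1.22, adjusted p = 0.0224) and Cdh24 by 2.02 (SE 0.41, adjusted p = 0.00266). Cdh1 and Cdh23 did not overlap, at 5.39, 3.51 and 7.51 CPM for Cdh1 and 0.192, 3.29 and 1.5 CPM for Cdh23 in the knock-in leukemias. Cdh24 did overlap, since the KO-ITD libraries, at 1.09–2.89 CPM, were as low as the knock-in leukemias at 1.07–2.44 CPM and only WT-ITD stood above them. In f/+ replicate 1 Epcam was at 182 CPM with Cdh1 at 5.39 CPM, so the pair did not rise together there.

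Most of the remaining members were low. Cdh3 reached 13.4 CPM in KO-ITD replicate 3. Itga7 at 15.3 CPM, Cdh11 at 9.47 CPM and Cdh5, the VE-cadherin of endothelium, at 7.04 CPM were highest among the retroviral libraries in KO-ITD replicate 4, the library with the highest fibroblast sum. Cdh11 and Cdh5 were at 8.74 and 9.22 CPM in the f/f leukemia. Cdh4 and Cdh20 were seen at 9.17 and 3.40 CPM in f/+ replicate 1, and Cdh20 had no count in any other library. The highest level of any library was 8.30 CPM for Itga3, 5.17 CPM for Itga2, 3.62 CPM for Cdh22, 1.89 CPM for Itgb6, 1.34 CPM for Cdh17, 1.13 CPM for Cdh15, 1.07 CPM for Itga11 and 0.722 CPM for Cdh13, and none of these passed a test. Itgax, the CD11c chain of dendritic cells, was at 0.061–17.2 CPM over all 17 libraries and Itgav at 24.1–76.5 CPM. Itgb5, a partner of Itgav, was at 0.306–7.12 CPM in GFP and WT-ITD libraries and 3.85–37.4 CPM in KO-ITD.

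Transcript estimates in the deposited tables split some members unevenly between libraries. For Cdh23, the transcript model NM_001252635 made up 96.9%, 91.9%, 11.4% and 99.9% of the gene in KO-ITD replicates 1 to 4 and 50.8%, 35.7% and 54.9% in WT-ITD. The model held only 8.77 estimated counts in KO-ITD replicate 3 and 27.5 in WT-ITD replicate 2. Splits of Itgam swung as widely: NM_001082960 made up 100% in KO-ITD replicate 2 and 0.1% in replicate 3. These are estimated splits of shared reads, given without a test.

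Genes that work with the members were read from 4 lists: integrin activation (28 tested), integrin ligands (13), synthesis of selectin ligands (18) and cadherin partners (14). In WT-ITD against WT-GFP, where 2.24% of all genes passed, 1 list gene did. It was St3gal3, a sialyltransferase that helps to make selectin ligands, which rose by 1.55 (SE 0.35, adjusted p = 0.039). In KO-ITD against KO-GFP, where 9.8% of all genes were higher and 9.85% lower, 5 of 28 activation genes rose and 5 fell. Each of the 22 list genes called in that contrast missed the threshold when 1 of the KO-GFP libraries was left out. Rasgrp1 and Rasgrp2, the exchange factors that feed Ras and Rap1 in lymphocytes, fell by 3.25 and 1.35 (adjusted p = 0.00908 and 0.0126), as did Ptk2b by 2.36 (adjusted p = 0.0146). Parvg, an adaptor of the integrin-linked kinase, rose by 1.15 (adjusted p = 0.00951).

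Among ligands in that contrast, Spp1 (osteopontin, bound by Itga9 and Itga4) rose by 7.11 (SE 1.49, adjusted p = 0.00889) and Tnc (tenascin C, bound by Itga9) rose from 0 counts in KO-GFP, while Icam2, a ligand of LFA-1, fell by 2.24 (adjusted p = 0.0126). Spp1 and Tnc are also made by macrophages and fibroblasts, whose gene sums were higher in KO-ITD, and that part was not tested. Of 18 selectin ligand genes 4 rose and 2 fell, among them Glg1, a ligand of Sele, which fell by 1.66 (adjusted p = 0.0115). Of 14 cadherin partners Ctnnd1 (p120 catenin) rose by 3.66 (adjusted p = 0.0401), Ctnnd2 rose, and Jup (plakoglobin) fell by 2.91 (adjusted p = 0.0291). In KO-ITD against WT-ITD, where 0.49% of all genes passed, the galactosyltransferase B4galt1 was the only list gene to do so. It was at 58.4 ± 3.55 CPM (SD, n = 3) in WT-ITD and 201 ± 54.0 CPM (SD, n = 4) in KO-ITD (1.78, SE 0.22, adjusted p = 0.00529). No gene of the 4 lists passed in KO-GFP against WT-GFP.

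In the knock-in leukemias the matrix ligand Fn1 (fibronectin, bound by Itga5 and Itga4) rose from 7.14 ± 8.19 CPM (SD, n = 3) in pre-leukemic marrow to 143 and 2371 CPM in f/+ (7.53, adjusted p = 0.0463) and 4973 CPM in f/f (9.51, adjusted p = 0.0394). Thbs1, a ligand of Itgb3 pairs, was at 1.36 ± 0.631 CPM (SD, n = 3) in pre-leukemic marrow, at 3.85 and 367 CPM in f/+ (7.14, adjusted p = 0.0495) and at 539 CPM in f/f (8.68, adjusted p = 0.043). The f/+ libraries differed widely in both genes. Without f/+ replicate 2 the f/+ difference was 4.41 for Fn1 (adjusted p = 0.223) and 1.55 for Thbs1 (adjusted p = 0.68). The activation genes that rose were Rap1a in f/+ by 0.79 (adjusted p = 0.0464), and Cyth1, Vcl, Ilk and Rassf5 in f/f by 0.99–1.72. In f/+ 1 of 28 activation genes and 2 of 13 ligands passed, where 5% of all genes did. In f/f 4 of 28 activation genes, 2 of 13 ligands and 1 of 18 selectin ligand genes passed, where 3.01% of all genes did. All 3 list genes called in f/+ and all 7 in f/f missed the threshold without at least 1 library.

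Between the models, 5 of 28 activation genes were higher and 7 lower in the retroviral leukemias, where 15% of all genes were higher and 17.1% lower. Of the 30 genes called from the 4 lists, 5 missed the threshold without at least 1 library. Skap1, the T cell adaptor of LFA-1 activation, was higher by 6.28 (SE 0.72, adjusted p = 5.35e-05) and its myeloid relative Skap2 lower (−3.82, SE 0.50, adjusted p = 0.000134). Group means were 276–296 CPM for Skap1 in the retroviral and 2.83–4.72 CPM in the knock-in leukemias, and 11.1–18.1 and 192–207 CPM for Skap2. Vcl, which links talin to actin, was lower (−4.10, adjusted p = 4.57e-07). Of the 13 ligands Fn1, Vwf and Thbs1 were lower and none was higher. Of the 18 selectin ligand genes 9 were lower and 1 was higher. Those lower included Spn (−1.47, adjusted p = 6.53e-06), Cd44 (−5.06, adjusted p = 0.000387) and the fucosyltransferase Fut7 (−5.06, adjusted p = 0.000214), an enzyme of selectin ligand synthesis in leukocytes. Of the 14 cadherin partners 4 were lower, Ctnnd1 among them, and 1, Pkp3, was higher.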

How the data were processed

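RNA-seq libraries of 7 groups were read from the deposited gene table of estimated counts, which the authors made with TopHat2 2.0.10, Cufflinks and Cuffdiff on mm9, per the submitters' processing notes. Those notes name Cuffdiff 2.1.1 for some libraries and 2.2.1 for KO-ITD replicates 3 and 4 and the knock-in groups. Of non-zero values 98.33% were whole within 0.001, and all were rounded. The strand setting of the counting was not stated. The technical runs of each WT-GFP sample share 1 column, so 19 deposited samples give 17 libraries.

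All genes were filtered with edgeR's filterByExpr, scaled by TMM and fitted over all 17 libraries with 1 mean per group (edgeR 4.0.16 and limma 3.58.1 in R 4.3.3, glmQLFit and glmQLFTest, two-sided). P-values were adjusted by Benjamini-Hochberg over the 15508 genes tested, with a threshold of 0.05. SE is the size of the log2 difference over the square root of F. Members were named where they passed a test or averaged at least 10 CPM in a group. The values of 1 member are not reported here. Partner chains were given in each case, and up to 4 genes of a list by smallest adjusted p. The members and lists were chosen with earlier results of these data known. Library totals ran from 4933886 to 25331906 counts, and counting intervals cover counting error only.

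Alternatives were median-ratio scaling, no filter, DESeq2 1.42.0, only the groups compared, a replicate block, each library left out, thymus libraries only and Cuffdiff 2.1.1 libraries only. Crossed pairing of the GFP groups, marrow libraries only between the models, each library left out for the list genes called, and leaving out WT-ITD replicate 1 with KO-ITD replicate 4, were added after the data were seen. The fit was tested on simulated data. Promoters came from RefSeq and protein sequences were not used here.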

Additional observations from a re-analysis of the deposited data

Results flagged for a closer look

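Of 27 members checked in KO-ITD, the only group of more than 3 libraries, 6 had 1 library far from the other 3. The gap to the nearest other library, as a share of the group's range, was above Dixon's 95% critical value for 4 samples, which chance passes in about 1 in 20 groups. Replicate 4 was the high library for Itga5 (36.8 CPM, share 0.955), Itgam (147 CPM, 0.94), Selp (20.8 CPM, 0.935) and Itga8, whose share of 1.0 rests on 0.121 CPM. Replicate 3 was the high library for Itgb3 (40.1 CPM, 0.931) and Itgb7 (355 CPM, 0.892). Replicate 4 also held the highest sums of monocyte, fibroblast and megakaryocyte genes of its group, at 4239, 2834 and 116 CPM. The part of these cells in the 4 members was not tested. Without KO-ITD replicate 4 the log2 difference of Itgam between retroviral and knock-in leukemias was −4.90 (adjusted p = 0.00011), against −4.22 with it.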

How the results depend on the processing

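No member that passed a test changed direction. Of 423 alternative values for 30 pairs of a member and a comparison, 372 stayed past the threshold and 51 did not. Of the pairs 12 passed under every alternative, among them Cdh24 in KO-ITD against KO-GFP. DESeq2 gave no adjusted p for some values of Itgam and Itga5, and these were left out.

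Counts of members that passed moved as follows. WT-ITD against WT-GFP (3, of 347 genes) gave 5 (1402) with DESeq2, 0 (283) with thymus libraries only and 0 to 4 (23 to 607) leaving out 1 library. KO-ITD against KO-GFP (6, of 3047) gave 13 (5015) with DESeq2, 1 (439) with only the groups compared, 10 (3901) with thymus libraries and 1 to 12 (147 to 3954) leaving out 1 library. KO-ITD against WT-ITD (1, of 76) gave 7 (1272) with DESeq2, 0 (0) with only the groups compared, 0 (80) with thymus libraries, 3 (246) with Cuffdiff 2.1.1 libraries and 1 to 4 (10 to 641) leaving out 1 library. The interaction (0) gave 1 (80) with DESeq2, 1 (13) with Cuffdiff 2.1.1 libraries and 0 to 1 (0 to 39) leaving out 1 library. The f/+ leukemias (1, of 775) gave 4 (2353) with DESeq2 and 0 to 3 (38 to 1246) leaving out 1 library. The f/f leukemia (3, of 467) gave 6 (1773) with DESeq2, 14 (3676) with only the groups compared and 0 (36 to 91) leaving out 1 library. Retroviral against knock-in leukemia (16, of 4979) gave 12 (2776) with only the groups compared, 22 (4651) with marrow libraries and 15 to 22 (4372 to 5970) leaving out 1 library. A lone library was assumed to vary like the other groups. The cause of these moves was not tested.

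The correlation of same-numbered replicates was 0.159, 0.369 and 0.082 for the 3 pairs of WT-ITD and KO-ITD, not all over 0.1, and −0.224 for WT-GFP and KO-GFP, where 2 libraries a group give both numbers 1 value. The samples were treated as sharing only a number. With the replicate block the counts in the same order were 2, 7, 1, 0, 2 and 4, and 21 between the models. Crossing the numbers of the GFP groups called 1 member and 356 genes, and the numbered pairing in those libraries 0 members and 5 genes. Itgam in the f/f leukemia was 4.96 with median-ratio scaling (adjusted p = 0.05). Cdh24 and Cdh1 in WT-ITD were −2.47 and 3.96 among thymus libraries, and Cdh1 4.30 with the block (adjusted p = 0.0557). Cdh23, Itga4, Itga5 and Itgb3 between the models gave adjusted p-values of 0.0705, 0.0666, 0.103 and 0.0569 with only the groups compared.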
